A study of Mus musculus with 10 samples.

Results

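Ribosomal protein genes encode the proteins of the cytosolic ribosome, and 51 of them in the mouse genome were described here: 28 of the large subunit, 3 of the stalk (Rplp0, Rplp1 and Rplp2) and 20 of the small subunit. The members came from a list of gene symbols chosen as a constitutive set, and open chromatin was measured at their ends. A gene's value was the summed count of every merged ATAC-seq region lying within 1000 bp of either end of its span. The window held 101 of the 246799 regions of the series. It gave values for 50 of the 51 genes, all of which were among the 15466 genes tested of 21883 protein-coding genes, and Rps2 alone had no region within it. The list was named for stable promoters, and the data did not bear out that name under every scaling of the libraries. The median member moved further over the series than the median gene under TMM scaling, and less far under library-size and loess scaling. Against genes of above-median abundance, a set more abundant than the members at the median, the median member moved further under each scaling. The scalings are described below. The genes are therefore called ribosomal protein genes here, and no stability is assumed.

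Every library came from ES-Bruce4, a C57BL/6 mouse embryonic stem cell line that the labels call wild type, differentiated toward neuromesodermal progenitors, the caudal cells that give rise to spinal cord and paraxial mesoderm. Cells were given bFgf from the start of differentiation, and whether it was kept on all days is not stated. CHIR99021, an activator of the Wnt pathway, was given from day 2, the day on which the first group was collected. Comparisons with day 2 therefore also differ in exposure to CHIR99021, which cannot be told apart from time. The 5 groups were cells collected on day 2, day 3, day 6 and day 7 without Gdf11, and on day 7 after 24 h with human Gdf11, a TGF-beta family ligand, at 50 ng/ml. Each group had 2 libraries, and the stem cells had been kept on mouse embryo fibroblasts that were removed once before plating. Whether the 2 came from separate cultures is not stated in the labels, so each p-value measures only the spread between these libraries. All 10 libraries are of a single line, and accessibility is not expression. In bulk libraries fewer open cells and less open chromatin per cell cannot be told apart.

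Cytosolic ribosomes join a large subunit, which forms peptide bonds, to a small subunit, which decodes the message, and each protein is needed in nearly equal number. The genes are scattered over the chromosomes, are transcribed in almost every cell, and many begin transcription at a C within a run of pyrimidines, the 5′ terminal oligopyrimidine signal by which mTOR signalling controls translation of their messages. Dependence on ribosome dose differs between tissues, and mutations of Rpl38 or Rpl24 disturb the axial skeleton and tail of mice.

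RefSeq promoter entries on build GRCm38.p6 were found for 42 of the 51 genes. The genes Rpl3, Rpl7, Rpl8, Rpl30, Rpl32, Rplp1, Rps14, Rps20 and Rps29 had no entry. Of the 42 promoters, 20 (47.6%) held a run of 8 or more C or T that touched the 21 bases around the annotated start, against 13.6% of 17491 promoters of all genes. Such a run need not include the start base itself, and it did not in Rpl4, Rpl13, Rpl13a, Rpl18, Rpl34, Rps12 and Rps25. The start base was C in 33.3% of the 42 and in 13.7% of all. The 41 bases centred on the start are shown for the 3 longest runs (Rpl7a, Rpl35 and Rpl15), for 5 genes on which results below turn (Rpl28, Rpl38, Rps6, Rps18 and Rplp2), and for 4 with a short run (Rpl9, Rpl22, Rpl37 and Rps3). The sequences run 5′ to 3′ on the sense strand, with the longest C/T run near the start in capitals.
Rpl7a, chr2:26910787-26910827, plus strand: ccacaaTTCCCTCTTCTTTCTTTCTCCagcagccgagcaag
Rpl35, chr2:39005111-39005151, minus strand: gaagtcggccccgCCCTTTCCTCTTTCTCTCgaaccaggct
Rpl15, chr14:18270966-18271006, minus strand: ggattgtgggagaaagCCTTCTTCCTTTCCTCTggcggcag
Rpl28, chr7:4792945-4792985, plus strand: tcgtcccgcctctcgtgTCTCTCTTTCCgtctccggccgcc
Rpl38, chr11:114668560-114668600, plus strand: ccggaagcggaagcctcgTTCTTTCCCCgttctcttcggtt
Rps6, chr4:86857347-86857387, minus strand: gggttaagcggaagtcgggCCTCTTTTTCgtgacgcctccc
Rps18, chr17:33955645-33955685, minus strand: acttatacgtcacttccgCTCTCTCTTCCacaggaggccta
Rplp2, chr7:141447631-141447671, plus strand: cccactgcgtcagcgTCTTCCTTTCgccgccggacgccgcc
Rpl9, chr5:65391411-65391451, minus strand: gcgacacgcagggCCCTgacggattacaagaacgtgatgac
Rpl22, chr4:152324416-152324456, plus strand: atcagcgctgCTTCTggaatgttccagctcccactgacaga
Rpl37, chr15:5116593-5116633, plus strand: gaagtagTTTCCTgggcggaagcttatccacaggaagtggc
Rps3, chr7:99483689-99483729, minus strand: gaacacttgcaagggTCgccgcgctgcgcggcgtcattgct
The run was 21 bases long in Rpl7a, 18 in Rpl35, 17 in Rpl15 and 2 in Rps3.

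Short motifs were searched on both strands of the 300 bases from 250 before to 50 after each start. The ETS core CCGGAAG was in 16 of 42 promoters (38.1%, exact 95% binomial interval 23.6% to 54.4%) and in 11.9% of all promoters. The GC box GGGCGG was in 54.8% against 46.3%, the YY1-like word ATGGCGGC in 9.52% against 3.20%, and the E-box CACGTG, which is its own reverse complement, in 11.9% against 7.91%. Lower shares than among all promoters were found for CCAAT, the NF-Y box (28.6% against 39.2%), TATAAA, the TATA box (7.14% against 13.3%), and the NRF1-like GCGCATGC (2.38% against 3.60%). For these 6 motifs the exact 95% intervals of the members' shares contained the share in all promoters, such as 15.7% to 44.6% for CCAAT and 38.7% to 70.2% for the GC box. The GC content had a median of 59% in the 42 and 56.3% in all. The 121 bases from 100 before to 20 after the start are shown for the genes of smallest (Rpl22) and largest (Rpl9) gene-end movement over the series and for Rpl38, with matches to the 7 motifs in capitals.
Rpl22, chr4:152324336-152324456, plus strand: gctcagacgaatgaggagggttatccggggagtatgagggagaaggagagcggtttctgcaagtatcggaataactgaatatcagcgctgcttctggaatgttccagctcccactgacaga
Rpl9, chr5:65391411-65391531, minus strand: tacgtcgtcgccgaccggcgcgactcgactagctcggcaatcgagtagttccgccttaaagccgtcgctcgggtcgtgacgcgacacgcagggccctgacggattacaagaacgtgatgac
Rpl38, chr11:114668480-114668600, plus strand: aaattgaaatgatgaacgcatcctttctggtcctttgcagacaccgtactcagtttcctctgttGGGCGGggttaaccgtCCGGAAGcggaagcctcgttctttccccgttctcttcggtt
The movement of Rpl22 was measured mainly at its 3′ end, as given below, and not at this promoter. The Rpl38 window held a GC box and an ETS core, and neither of the others held any of the 7. A match is a description of the letters and not of a bound site.

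In the authors' peak lists, made per library, 50 of the 51 genes had a called peak within the window in all 10 libraries, and 48 still did with a −log10 q of at least 10. In a given library, between 61.2% and 67.4% of all genes had one at any q. The share of all genes with a peak in all 10 libraries, or at the higher −log10 q, is not given. The strongest peak of a member had a median fold enrichment, as the authors give it, of 9.30 to 12.2 per library, and the median over all peaks of a library was 4.97 to 6.44. The first takes only the strongest peak per gene and the second takes every peak. The strongest peaks of all genes were not taken, so these values do not compare members with other genes. Peak summits sat at the start for most: among 41 genes with an entry and a peak the median summit lay 63 bp upstream of the annotated start (−63 bp), 31 lay within 100 bp of it and 36 within 250 bp.

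For 38 of the 42 genes with an entry a merged region covered the annotated start, and for 36 that region was the gene's largest. Rpl22 had no region closer to its start than 947 bp, and 83.6% of its count came from a region near its 3′ end. In Rpl4 and Rps18 the largest region was at the 3′ end, with 49.8% and 54.3% of the counts, within 1000 bp of the ends of other genes (Snapc5 and Zwilch for Rpl4, B3galt4 and Vps52 for Rps18). In Rpl18, Rpl19 and Rps2 the annotated start lay 2604, 4707 and 1942 bp inside the gene span, out of reach of the window. In all, 16 of the 50 genes shared a region with the end of another gene, among them Rpl15 with Nkiras1, Rpl9 with Lias, Rpl37 with Card6 and Rps21 with Cables2. At such ends the signal of the genes cannot be told apart. Regions at 5′ ends held 68.2% of the members' counts, those at 3′ ends 8.34%, and 18.4% came from genes whose strand was not known.

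Levels between genes were compared per length, as TMM-scaled CPM (counts relative to the scaled library total) per kb of region. TMM, the trimmed mean of M values, scales libraries so that most regions do not differ. The median member stood at 36.3 CPM per kb. The highest were Rpl37 at 113, Rpl15 at 107, Rpl13a at 77.1, Rps21 at 76.1 and Rpl27 at 73.9. At the low end were Rpl4 at 23.6, Rpl5 at 20.9, Rpl23 at 15.2, Rpl19 at 14.0 and Rpl22 at 12.8. The range was thus 8.83-fold, and raw counts of a member in a library ran from 31 (Rpl22) to 1484 (Rpl13a).

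Movement over the series was taken as the spread, the highest minus the lowest of the 5 group means of log2 CPM. Under TMM scaling the median spread of the 50 genes was 0.60 (1.52-fold), against 0.57 for all genes tested and 0.47 for the genes above the median abundance. Mean log2 CPM had a median of 4.76 in the members, 4.42 in all genes and 5.26 in the abundant genes. The members thus lay between these sets, and neither set matched them in abundance. The libraries of a group differed by a median of 0.14 in the members and 0.22 in all genes. A highest minus a lowest of 5 means is above 0 with no change at all, so whether a gene differed among groups rests on the test given further on. Scaling by library size alone gave 0.48 for the members, 0.52 for all and 0.40 for the abundant genes. Cyclic loess, which removes trends with abundance, gave 0.40, 0.49 and 0.35. The members' median lay above that of abundant genes under all 3 scalings, and above that of all genes under TMM only. No member spread by more than 0.89 under TMM, 0.81 under library size or 0.79 under loess, and the upper quartile of all genes was 0.88, 0.88 and 0.80. Across the 50 genes the order of spreads correlated by Spearman's rho of 0.92 between TMM and library size and 0.65 between TMM and loess, values that rest on the same libraries.

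**Figure D1:**
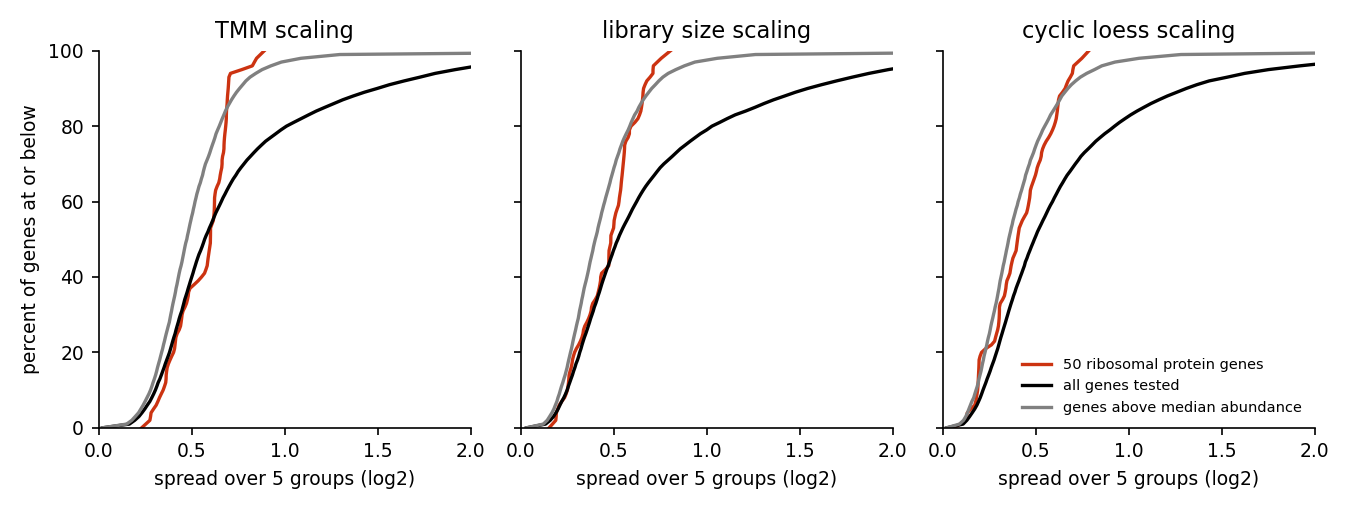
Cumulative percent of genes (vertical axis) at or below a spread over the 5 groups in log2 units (horizontal axis, cut at 2), for 50 ribosomal protein genes (red), all 15466 genes tested (black) and genes above the median abundance (grey), under 3 scalings. The red line starts near the black one and ends by 0.89, and it crosses the others at different points under each scaling.

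A test of any difference among the 5 groups (edgeR quasi-likelihood F test, Benjamini-Hochberg over all genes, threshold 0.05) called 30 of the 50 members under TMM. The background was 41.3% of all genes tested and 43.3% of abundant genes. Library size scaling called 27 members (background 44.9%) and loess 17 (background 38.9%), and 15 were called under all 3, for which no share of all genes is given. The TMM count was lower with either library of day 7 or replicate 1 of day 2 left out. Here and below, counts with a library left out come without the share of all genes in the same fit. Such counts do not tell a change of the members from a change of all genes. The 20 genes not called under TMM are not thereby shown to be stable. The 95% interval of the change lay wholly within 1.5-fold either way for 26 of 50 members at day 3 against day 2 (background 39.5% of all genes and 61.4% of abundant genes), 38 at day 6 against day 3 (44.4% and 71.9%), 33 at day 7 against day 6 (48.9% and 76.2%), 19 at Gdf11 against day 7 (36.9% and 56.4%) and 14 at day 7 against day 2 (22.7% and 34.9%). The members' shares lay above those of all genes in each comparison, and below those of abundant genes in all but day 6 against day 3. These comparisons share groups and are not independent. The last of these counts was 8 and 7 when replicate 1 or 2 of day 2 was left out, and 7 and 6 for replicates 1 and 2 of day 7. The Gdf11 count was 8 and 11 with replicates 1 and 2 of untreated day 7 left out in turn, and 11 and 4 for those of Gdf11. The day 7 against day 6 count was 14 and 17 with day 6 replicates 1 and 2 left out, and 16 and 19 with those of day 7. The day 6 against day 3 count was 20 with day 6 replicate 1 left out.

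Summed over the 101 regions, ribosomal protein genes were most accessible on untreated day 7. The sum in TMM-scaled CPM was 1432 and 1503 on day 2, 1635 and 1767 on day 3, 1647 and 1636 on day 6, 1902 and 1951 on day 7, and 1493 and 1612 after Gdf11. Day 7 lay above every other library, and the Gdf11 libraries overlapped those of day 2. Group means were 1468 ± 50.2 on day 2 and 1926 ± 34.7 on day 7 (SD, n = 2), a ratio of 1.31. As a share of all counts at gene ends, which does not depend on scaling, the sum was 0.431% ± 0.0133 on day 2, 0.468% ± 0.0190 on day 3, 0.456% ± 0.0126 on day 6, 0.491% ± 0.00247 on day 7 and 0.458% ± 0.0153 after Gdf11 (SD, n = 2). By gene, 33 of 50 members had their highest group mean on untreated day 7 under TMM, against 40.9% of all genes, and 22 under loess, against 20.1%. Day 2 was the lowest group for 23 (35.3% of all genes) and day 7 with Gdf11 for 21 (28.03%).

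**Figure D2:**
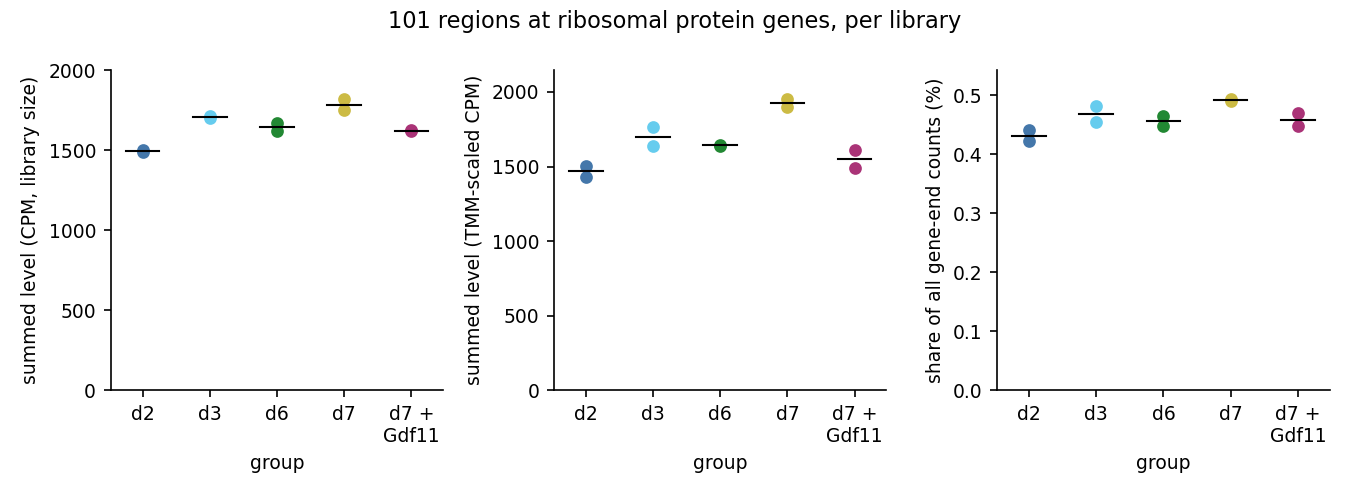
Summed accessibility of the 101 regions per library (points) with the group mean (bar), n = 2 per group, as CPM by library size, as TMM-scaled CPM and as percent of all counts at gene ends, with each vertical axis starting at 0. Untreated day 7 was highest in each panel, at a mean of 1926 TMM-scaled CPM against 1468 on day 2.

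The genes that moved least were Rpl22 (spread 0.23), Rps10 (0.28), Rpl18 (0.28), Rplp0 (0.31) and Rpl35 (0.33), and those that moved most were Rpl9 (0.89), Rpl28 (0.85), Rps12 (0.83), Rpl38 (0.70) and Rpl5 (0.70). Rpl22, a large-subunit protein with a paralogue, Rpl22l1, stood at 6.07 and 5.37 CPM on day 2, 7.88 and 4.498 on day 3, 5.26 and 6.82 on day 6, 4.96 and 5.19 on day 7, and 5.37 and 4.82 after Gdf11. The day 3 libraries enclosed those of every other group, and under loess its spread was 0.53. Its small region nearest the start, at 0.58 to 1.42 CPM in the group means, spread by 0.98, more than the start-centred value of any other of 42 genes, with none of its 5 pairwise comparisons called. That region lay 947 bp from the start, and its libraries were far apart at this low level (1.78 and 0.26 CPM on day 2). The low rank of Rpl22 thus holds for the gene-end sum only. Movement at its start cannot be judged from so few counts. Rplp0, the stalk base that anchors Rplp1 and Rplp2, stood at 30.04 and 30.9 CPM on day 2, 27.3 and 30.6 on day 3, 34.5 and 32.5 on day 6, 35.5 and 36.3 on day 7, and 30.5 and 30.4 after Gdf11. Under loess Rpl35 spread by 0.12 and Rpl37, which shares a region with Card6, by 0.06, the smallest of the 50. Under TMM Rpl37 had a spread of 0.42 and was called higher on day 7 than on day 2. The gene with the smallest spread thus depended on the scaling.

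**Figure D3:**
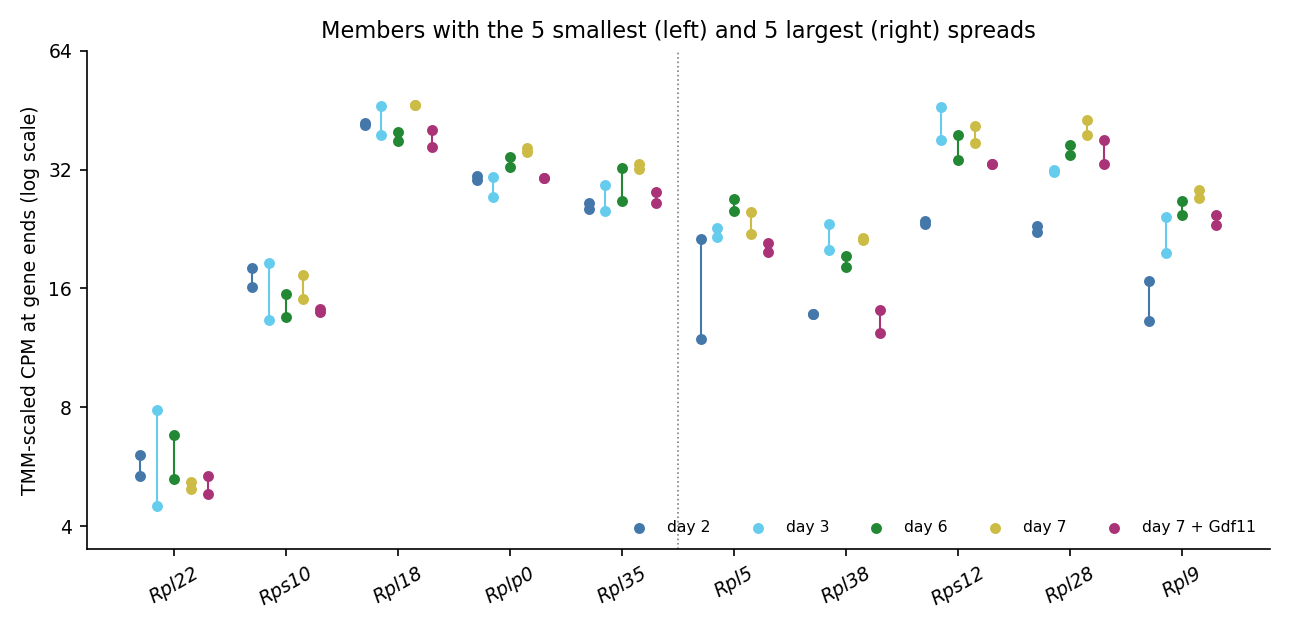
TMM-scaled CPM at gene ends (log axis) in each of the 10 libraries, coloured by group with replicates joined by a line, for the 5 members with the smallest spread (left of the dotted line) and the 5 with the largest (right). In Rpl28, Rps12 and Rpl9 both day 2 libraries lie below all others, and in Rpl22 the day 3 libraries enclose every other group.

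Over the whole course, day 7 without Gdf11 against day 2, 23 of 50 members rose and 1, Rpl19, fell under TMM. The background was 43.6% of all genes called (27.1% higher, 16.5% lower), and among abundant genes alone 43.6% were called higher, near the members' own share. Under loess 15 rose, where 15.2% of all genes and 13.5% of abundant genes were higher, and 2, Rpl4 and Rps18, fell. Library size scaling gave 22 higher and 2, Rpl19 and Rps18, lower (background 20.9% and 21.6%). The same 15 genes rose under all 3 scalings: Rpl7, Rpl9, Rpl14, Rpl24, Rpl28, Rpl34, Rpl38, Rps3, Rps6, Rps9, Rps12, Rps14, Rps23, Rps27 and Rps29. No share of all genes called under all 3 scalings is given, for these or for the single steps below. TMM moved the median of all genes to 0.15, where loess left it at 0.01. The members' median change was 0.39 under TMM, 0.25 under library size and 0.21 under loess, or 0.24, 0.23 and 0.20 above that of all genes. The groups did not overlap for 39 members that were higher (background 45.4%) and 6 that were lower (27.7%).

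Large-subunit genes gave 11 of the rises among 28. Rpl9, which lies near the stalk base, stood at 16.8 and 13.2 CPM on day 2, 19.7 and 24.2 on day 3, 26.6 and 24.6 on day 6, 28.4 and 27.1 on day 7, and 23.2 and 24.5 after Gdf11. Day 2 was below every other library, and the change from day 2 to day 7 was 0.89 ± 0.18 in log2 units (SE, 1.85-fold, edgeR adjusted p = 0.000682). Its 2 regions both rose: the one over the start (chr5:65391231-65391729) by 0.73 ± 0.20 and a smaller one upstream (chr5:65391839-65392064) by 2.08 ± 0.46. Rpl28, a protein of eukaryotic ribosomes, stood at 22.3 and 23.0 CPM on day 2, 31.9 and 31.5 on day 3, 34.9 and 36.9 on day 6, 39.2 and 42.9 on day 7, and 33.1 and 38.1 after Gdf11. It rose by 0.85 ± 0.15 (1.81-fold, adjusted p = 0.000193), and its day 2 libraries were again the lowest. Rpl34 rose by 0.69 ± 0.13, Rpl15 by 0.62 ± 0.12 and Rpl7 by 0.70 ± 0.14. Rpl9, Rpl15 and Rpl7 share regions with neighbours, and under loess Rpl15 was not called.

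Among the large-subunit genes known for their roles outside the ribosome, Rpl5 and Rpl11, which bind the p53 regulator Mdm2 when free, did not pass the threshold. Rpl5 stood at 11.9 and 21.3 CPM on day 2, 22.0 and 25.1 on day 7 (0.51 ± 0.21, 95% interval 0.07 to 0.95, adjusted p = 0.0554), and its day 2 libraries were farther apart than those of any other group. Rpl11 stood at 22.5 and 19.5 on day 2 and 22.9 and 23.6 on day 7 (0.14 ± 0.18, interval −0.23 to 0.52). Rpl24, whose mutation gives the Belly spot and tail mouse, rose by 0.69 ± 0.18 (adjusted p = 0.0037), from 18.8 and 16.8 to 26.3 and 31.6 CPM. Rpl19, at the junction of the subunits and sharing a region with Cacnb1, went from 17.5 and 17.0 CPM on day 2 to 11.3 and 12.8 on day 7 (−0.53 ± 0.20, adjusted p = 0.0342). The annotated start of Rpl19 was outside the window, and at regions around that start its change was 0.11 ± 0.24, in the opposite direction and not called.

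None of the 3 stalk genes was called in any pairwise comparison under the 3 scalings, and their median spread was 0.37. From day 2 to day 7 Rplp0 changed by 0.24 ± 0.15 (interval −0.08 to 0.55), Rplp1 by 0.08 ± 0.18 (−0.30 to 0.46) and Rplp2 by 0.32 ± 0.15 (0.00 to 0.63). The intervals do not exclude changes as large as those of some called members. The difference between stalk and other members was not tested.

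Small-subunit genes gave the other 12 rises, among 19 tested. Rps12 stood at 23.3 and 23.7 CPM on day 2, 38.0 and 46.1 on day 3, 39.1 and 33.9 on day 6, 41.3 and 37.4 on day 7, and 33.1 and 33.0 after Gdf11. Day 2 was below all other libraries, and the rise to day 7 was 0.74 ± 0.16 (adjusted p = 0.000825). Rps6, the substrate of S6 kinase, stood at 24.8 and 25.8 on day 2 and at 39.1 and 40.5 on day 7 (0.65 ± 0.17, adjusted p = 0.00383). Rps29 rose by 0.67 ± 0.13 and Rps21 by 0.57 ± 0.12, although the single region of Rps21 is shared with Cables2 and loess did not call it. Rps19, mutated in Diamond-Blackfan anaemia, rose by 0.49 ± 0.12 under TMM (62.0 and 66.4 CPM to 94.7 and 85.3) and was not called under loess. Rps14 rose by 0.69 ± 0.18. Rps20 stood at 23.8 and 28.9 CPM on day 2 and 34.9 and 29.2 on day 7 (0.29 ± 0.18, adjusted p = 0.181).

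Rps18 was called lower on day 7 under loess (−0.68 ± 0.11) and under library size but not under TMM (−0.31 ± 0.13, adjusted p = 0.0552). Rpl4 was called lower under loess alone (−0.45 ± 0.12), and its TMM value was −0.12 ± 0.14. In Rps18, a protein of the subunit head, the 3′ region (chr17:33951011-33951954) near Vps52 and B3galt4 fell by 0.62 ± 0.17 under TMM (adjusted p = 0.00315), and the value of the region over its own start was 0.11 ± 0.18. The lower value therefore lay in a region that was not at the Rps18 start. Of 98 member regions tested singly, 35 were called between day 2 and day 7 (31 higher, 4 lower), against 37.7% of all regions.

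**Figure D4:**
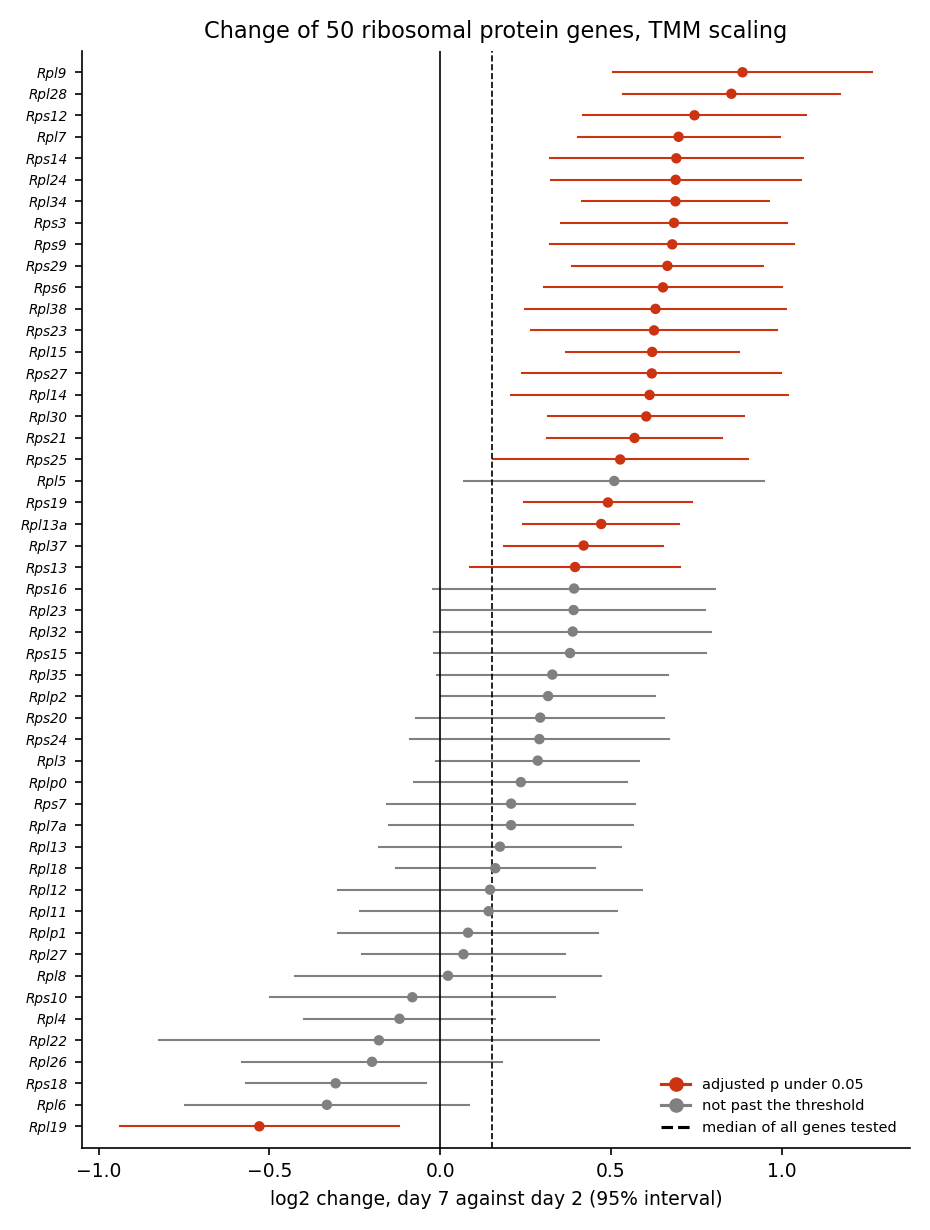
Log2 change of the 50 ribosomal protein genes between day 2 and day 7 (points) with 95% intervals (bars) under TMM, ordered by size, red where the adjusted p was under 0.05. Of the 24 red genes 23 lie to the right of 0, and the dashed line marks the median of all genes tested, 0.15.

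Few members passed the threshold in a single step of the course. These comparisons share groups with one another, so the values stand side by side. From day 2 to day 3, the day after CHIR99021 was added, 4 members rose and none fell (background 4.48% higher, 2.44% lower). Among abundant genes 7.13% were higher, near the 8% of the members. Rps12 rose by 0.83 ± 0.16 (edgeR adjusted p = 0.00308), Rpl38 by 0.65 ± 0.18 (adjusted p = 0.0371), Rpl34 by 0.44 ± 0.13 and Rpl15 by 0.42 ± 0.12. The members' median was 0.20 against 0.05 for all genes. A replicate block raised the count of members called under TMM, as given in the last section. Rpl38 and Rps12 were called under all 3 scalings, of 8 members called by library size (background 8.74% higher) and 4 by loess (4.27%). The count was 1 without day 3 replicate 2 or any 1 library of day 6 or day 7, 2 without either library of day 2, and 8 without either Gdf11 library.

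Rpl38, the large-subunit protein whose loss in the Tail short mouse alters axial patterning, stood at 13.8 and 13.8 CPM on day 2, 19.99 and 23.4 on day 3, 19.4 and 18.2 on day 6, 21.2 and 21.5 on day 7, and 12.3 and 14.1 after Gdf11. Untreated libraries from day 3 on were all above day 2 and above Gdf11, which overlapped each other. Its region over the annotated start (chr11:114668355-114668763) held 82.9% of its counts and rose by 0.86 ± 0.21 from day 2 to day 7 (adjusted p = 0.00101). This start lies 762 bp inside the gene span. A window of 500 bp therefore left that region out, and the day 7 against day 2 value was then −0.60 (adjusted p = 0.369) and the day 3 against day 2 value −0.04 (adjusted p = 0.968).

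From day 3 to day 6, Rpl26 and Rps16 fell and none rose (background 4.29% lower, 2.16% higher). Rpl26, whose protein binds the p53 message, went from 22.4 and 25.8 CPM to 17.1 and 13.7 (−0.63 ± 0.19, adjusted p = 0.0459), with no overlap, and stood at 19.8 and 23.6 on day 7. Rps16, whose tail reaches the decoding site, went from 20.7 and 22.6 to 14.0 and 13.4 (−0.66 ± 0.20, adjusted p = 0.0474) and stood at 17.0 and 23.0 on day 7. Both were called under all 3 scalings, among 3 called lower by library size (background 6.76%) and 3 by loess (6.5%). The TMM count was 0 without day 3 replicate 2 or either library of day 6, 1 without day 3 replicate 1 or either library of day 7, and 3 without either library of day 2. From day 6 to day 7 no member passed (background 0.0582%), with 14 at an unadjusted p under 0.05 in edgeR, where 13.4% of all genes were, and 0 called by DESeq2. Library size and loess left 4 and 3 members under that unadjusted threshold. The members' median change there was 0.23, against 0.09 for all genes.

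After 24 h of Gdf11, 4 members fell relative to untreated day 7 under TMM and none rose (background 2.72% lower, 0.181% higher). Among abundant genes 4.45% were called in either direction. Rpl3, near the peptidyl transferase centre, went from 48.3 and 57.4 CPM to 31.6 and 36.4 (−0.63 ± 0.14, adjusted p = 0.0265). Rpl38 went from 21.2 and 21.5 to 12.3 and 14.1 (−0.69 ± 0.18, adjusted p = 0.044). Rps3, at the mRNA entry site, changed by −0.60 ± 0.16 and Rpl13a by −0.42 ± 0.11. The groups did not overlap, with Gdf11 lower, for 42 of 50 members, against 45.9% of all genes. These calls depended on scaling: library size (background 0.892%), loess (0.989%) and DESeq2 each called 0 members, with 9 and 8 at an unadjusted p under 0.05 in edgeR under the first and second, where 14.4% and 13.3% of all genes were. TMM placed the median of all genes at −0.18, library size at −0.01 and loess at 0.01. The members' median was −0.28, −0.12 and −0.05, or −0.10, −0.11 and −0.06 relative to all genes. A replicate block, not used since the replicate numbers were not taken to pair the samples, raised the TMM count, as given in the last section. The TMM count was 0 without either day 7 library or Gdf11 replicate 1, 7 without Gdf11 replicate 2, 9 and 7 without day 2 replicates 1 and 2, 10 without either day 3 library and 2 without day 6 replicate 1.

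**Figure D5:**
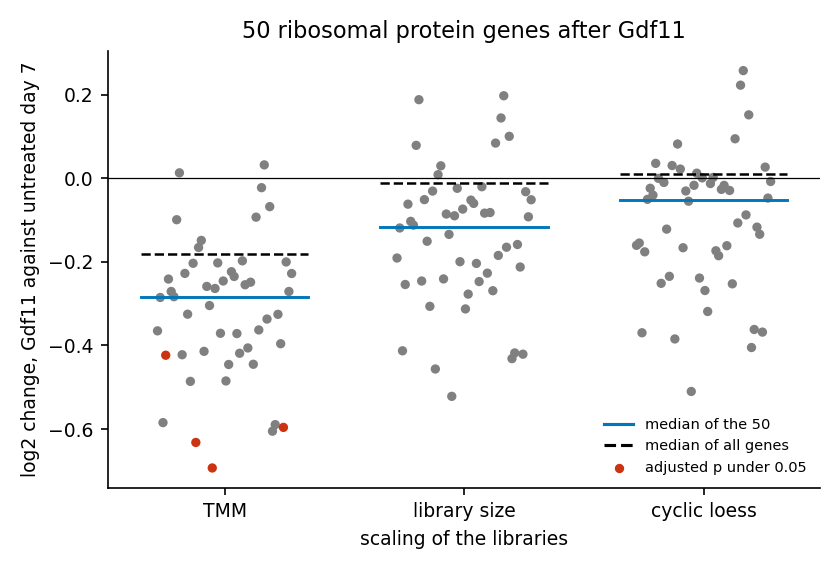
Log2 change of each of the 50 ribosomal protein genes (points, red where the adjusted p was under 0.05) between Gdf11-treated and untreated day 7 under 3 scalings, with the median of the 50 (solid line) and of all genes tested (dashed line). The dashed line moves from −0.18 under TMM to 0.01 under loess, and red points occur under TMM only.

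Rps2, which the window missed, had a value when the window was widened to 2000 bp: 20.9 and 21.6 CPM on day 2, 26.7 and 25.5 on day 3, 28.8 and 28.8 on day 6, 33.8 and 27.3 on day 7, and 26.2 and 27.3 after Gdf11. It rose from day 2 to day 7 by 0.53 ± 0.16 (adjusted p = 0.0113). Counting only regions within 1000 bp of the annotated start, an alternative chosen after seeing the data, gave values for 42 members, with a median spread of 0.60 against 0.56 for all genes and 0.47 for abundant ones. Then 20 rose and 0 fell from day 2 to day 7 (background 28.8% higher, 15.3% lower). Rpl18, steady by the gene-end value, spread by 0.51 at its start, from 12.3 ± 1.19 CPM on day 2 to 17.6 ± 1.26 on day 3. It was not called there from day 2 to day 3 (edgeR adjusted p = 0.103) or to day 7 (0.104).

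The members' own features were set beside their movement without a test. The 20 genes with a C/T run of 8 or more had a median change of 0.50 from day 2 to day 7, with 11 higher, and the 21 tested genes with a shorter run had 0.39, with 8 higher. Under loess the medians were 0.20 and 0.19. The 15 tested genes with an ETS core had a median of 0.32, with 6 higher, and the 26 without had 0.43, with 13 higher. Under loess these were 0.04, with 2 higher, and 0.36, with 10 higher. The 34 genes that shared no region with another gene had a median spread of 0.61 and 15 rises, and the 16 that did had 0.59 and 8. Under loess the unshared genes had a median change of 0.29 with 12 rises, and the shared ones 0.12 with 3. Of all genes 27.1% were higher under TMM and 15.2% under loess.

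Related gene lists, also chosen with results known, were counted from day 2 to day 7 in the same way, under TMM unless stated, where 27.1% of all genes and 43.6% of abundant genes were higher. Of 30 other cytosolic ribosomal protein genes tested, 21 rose and 0 fell (median 0.51), with Rpl27a at 0.97 ± 0.14 and Rpl10 also among them. Of 22 translation factors 12 rose (median 0.42), among them Eif2s1, a subunit of the initiator tRNA carrier, at 0.65 ± 0.13, and Eif5a at 0.64 ± 0.13. Of 24 ribosome biogenesis genes 14 rose (median 0.46), with Gar1, of the pseudouridylation complex, at 1.34 ± 0.17. Of 24 mitochondrial ribosomal protein genes 7 rose (median 0.44), with Mrpl44 at 0.91 ± 0.16. Of 12 housekeeping genes 7 rose (median 0.40), with Sdha at 0.99 ± 0.18 and B2m at 0.70 ± 0.16. None of these lists had a gene called lower under TMM. Under loess, where 15.2% of all genes were higher, the counts in the same order were 13 of 30, 6 of 22, 8 of 24, 10 of 24 and 4 of 12, and 1 translation factor was lower. The loess medians were 0.31, 0.13, 0.21, 0.46 and 0.13. The TMM medians lay above the 0.15 of all genes and the 0.33 of genes above the median abundance.

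Totals over all regions were 7150334 to 12335735 counts per library, and mitochondrial regions held 9.25% to 13.4%. Markers of cell state moved with the days: of 13 pluripotency and epiblast genes 8 fell from day 2 to day 7, and of 14 caudal progenitor genes 8 rose from day 2 to day 3 (background 16.5% lower and 4.48% higher). From day 2 to day 7 the caudal list was mixed, with 4 of the 14 higher and 6 lower (background 27.1% and 16.5%). Summed gene-end levels of the pluripotency list ran from 146 to 303 CPM over the groups and of the caudal list from 197 to 404. The neural progenitor list ran from 325 to 439, highest on untreated day 7. The list of feeder fibroblast markers ran from 140 to 164 and that of endoderm from 78.4 to 106, and no marker in these lists was at 0 in all groups. From day 2 to day 7, 3 of 12 neural genes rose and 2 fell, 4 of 11 tested feeder genes rose and 4 fell, and 1 of 7 tested endoderm genes rose and 2 fell, where 27.1% of all genes rose and 16.5% fell. The part of cell state in the members' values was not tested.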

How the data were processed

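The authors deposited raw counts per region, 1 file per library. The submitters' processing notes name HISAT2 2.1.0, SAMtools, MACS2 2.1.1.20160309, bedtools, HOMER 4.10 and build mm10, with no role or order; the counter and the handling of reads that fit several places are not given in the sources used here, and ribosomal protein genes have many processed pseudogenes. The peak lists deposited by the authors, 1 per library and with peak names that record duplicate removal, give a ratio (fold enrichment) and the −log10 of a q per peak. Motif tables were not used.

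The count files carry no coordinates. Merging the 10 peak lists with chromosomes in character order gave 246799 regions, equal to the number in each count file, and no region with a library's own peak had a count of 0 there; numeric order left 1140 to 10185 such zeros. Positions rest on this match.

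Gene sums were tested in edgeR 4.0.16 (R 4.3.3) by two-sided quasi-likelihood F tests on 1 fit of all 10 libraries, with filterByExpr (15466 genes kept, 604 removed), TMM factors of the region table, Benjamini-Hochberg adjustment and a threshold of 0.05. Errors of log2 changes are standard errors from the F statistic, log2 CPM used a prior count of 2, and intervals are 95%. Loess used limma 3.58.1, and DESeq2 1.42.0 was an alternative. On simulated counts for day 3 against day 2 (15466 genes), 34% of 50 genes changed 1.5-fold and 76% of 50 changed 2-fold were recovered. In each of the 5 groups the 2 libraries differed by more than sampling noise (chi-square per degree of freedom 2.28 to 3.28). Depth limits precision to counting error at best.

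The members, lists and rules were chosen with earlier results of these data known. Named were members called in any comparison (the 8 of smallest p where more were), the 5 smallest and largest spreads, the 5 highest and lowest levels, members without a region, 11 genes of known role, and up to 2 called genes of each other list; start windows were chosen after values were seen.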

Additional observations from a re-analysis of the deposited data

How the results depend on the processing

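Counts of members called moved by more than 1.5 times under these settings. Library size scaling gave 8 for day 3 against day 2 and 0 for Gdf11 against day 7, a median spread of 0.484 and 38 members within 1.5-fold after Gdf11. Loess gave 17 for any difference, 0 for Gdf11, 39 and 26 members within 1.5-fold for Gdf11 and for day 7 against day 2, and a spread of 0.402. DESeq2 gave 0 for Gdf11. A 500 bp window gave 0 for day 6 against day 3 and 1 for Gdf11, the largest region alone 0 and 2, and regions at the annotated start, chosen after seeing the data, 1 and 1. On the sense strand only, the GC box was in 28.6% and the YY1-like word in 2.38% of promoters. Beyond the scalings and the window the cause was not tested. Leaving out each library in turn (a lone sample is then assumed to vary like the other groups) gave 15 to 32 members for any difference, 1 to 8 for day 3 against day 2, 0 to 3 for day 6 against day 3, 0 to 10 for Gdf11 and 19 to 26 for day 7 against day 2; 18 to 26, 20 to 41, 14 to 33, 4 to 24 and 6 to 15 members within 1.5-fold for day 3 against day 2, day 6 against day 3, day 7 against day 6, Gdf11 and day 7 against day 2; and spreads of 0.568 to 0.647. A replicate block gave 14 for day 3 against day 2, 1 for day 7 against day 6 and 17 for Gdf11. Shares of all genes are not given here for the block or left-out fits. A change of the members alone therefore cannot be told from a change of all genes. The numbers were not taken to pair the samples, since 3 of 10 correlations of deviations were over 0.1 (−0.00118 to 0.166), although 10 of 10 libraries correlated best with one of their own number, a hint from the data. Of single genes, Rpl38 at 500 bp (−0.0426 and −0.595) and Rpl19 at its annotated start (0.112) changed sign. With no filter, a 2 kb window or no mitochondrial regions, counts stayed within 1.5 times.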
